A study of Solanum tuberosum with 9 samples.

Results

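STUGE51 encodes a UDP-glucose 4-epimerase of potato. It is 1 of the 25702 genes in the deposited tables and was taken by its symbol. It was selected on its measured levels across these libraries, with the difference between treatments already known, so its own levels and differences are given below as a description, with no test. RNA was sequenced from stolons of the variety Kexin 13, the underground shoots whose tips can swell into tubers. Plants were kept under nitrogen deficiency (AN0), conventional nitrogen supply (AN1) or nitrogen excess (AN2), with 3 libraries each. The labels give neither the nitrogen doses nor the age of the plants at harvest, and nothing in them says whether the 3 libraries came from separate plants, so the spread may be partly technical.

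UDP-glucose 4-epimerases interconvert UDP-glucose and UDP-galactose with a bound NAD as cofactor. UDP-galactose is the galactose donor for the galactan side chains of pectin, for arabinogalactan proteins, for galactolipids and for galactinol, and the walls of potato tubers are rich in pectic galactan. Plants carry several epimerase genes, and the potato tables name a second one, STUGE45.

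Library totals ran from 30952622 to 38235348 counts, and STUGE51 was covered by 367 to 2268 of them per library. Its counting error (the square root of the count, as a share of it) was therefore between 2.10% and 5.22%, less than the spread between libraries of any treatment. Libraries AN0-1 and AN2-3 stood apart from the other 7. Their summed level over 6 photosynthesis genes was 639 and 478 CPM, against 9.85 to 86.3 CPM in the others. Over 7 genes for tuber storage proteins, protease inhibitors and granule-bound starch synthase they had 12224 and 1745 CPM, against 15507 CPM in AN2-1 and 34393 to 53826 CPM in the rest. The storage sum was carried by patatin and most of the inhibitor genes, and PIN-II, a proteinase inhibitor among the 7, was lowest in AN0-1 at 120 CPM but highest in AN2-3 at 841 CPM. GBSS, for the starch synthase, was lowest in AN2-3 at 187 CPM, but in AN0-1 its 3735 CPM exceeded the 2091 to 3328 CPM of AN1. AN2-1 was below AN0-1 for GBSS and for the inhibitor genes gCDI-B1 (870 against 2848 CPM) and KTI-C (202 against 1091 CPM), and above it for the rest. The main values that rest on these 2 libraries are given below with and without them. CPM are counts scaled to a common library total, with TMM factors that correct the totals for the makeup of each library.

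STUGE51 was lowest under conventional nitrogen and highest under excess. In AN1 it stood at 13.1, 11.6 and 14.0 CPM in libraries 1 to 3. Those values lay close together, with a mean of 12.9 ± 1.21 CPM (SD, n = 3) and a coefficient of variation of 9.40%. In AN0 it stood at 33.5, 23.3 and 18.4 CPM, a mean of 25.1 ± 7.70 CPM (SD, n = 3). In AN2 it stood at 35.7, 34.9 and 60.5 CPM, a mean of 43.7 ± 14.6 CPM (SD, n = 3). Every AN0 library was above every AN1 library, as was the case for 9.54% of the 21223 genes that passed the filter on low counts. Every AN2 library was above every AN1 library, as for 13.3% of those genes, and above every AN0 library, as for 13.0%. These shares are background, from which nothing is read about STUGE51, since it was selected on the same values. The coefficients of variation of 30.7% in AN0 and 33.3% in AN2 came largely from 1 high library each, AN0-1 and AN2-3.

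**Figure D1:**
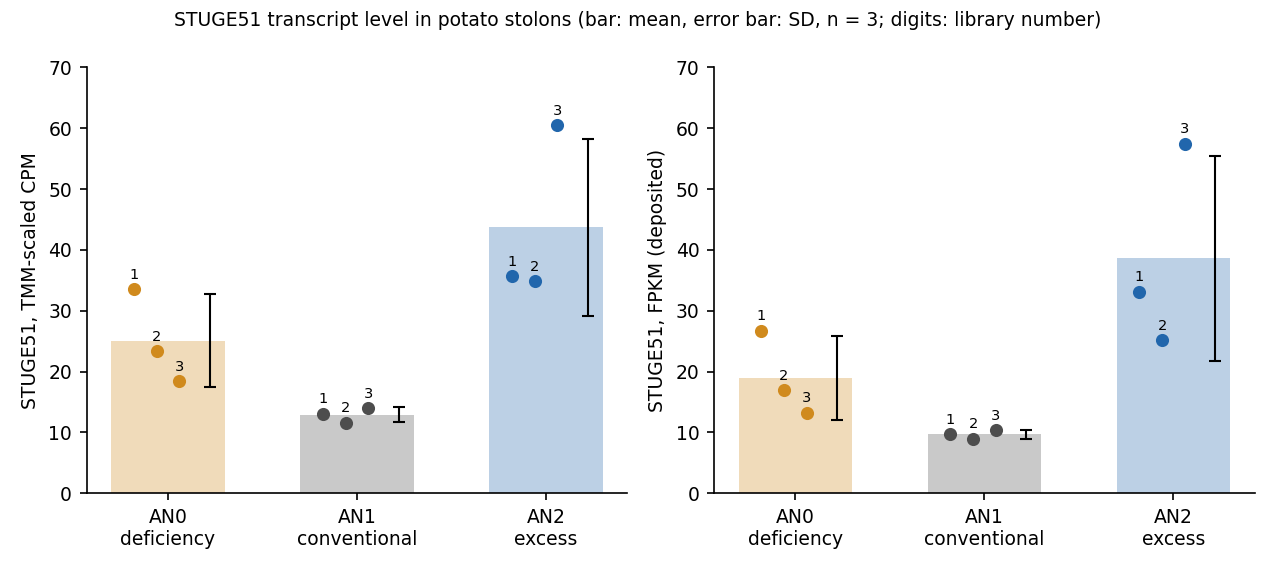
STUGE51 in each library as TMM-scaled CPM (left) and as the authors' FPKM (right), with bars for the treatment mean, error bars for the SD (n = 3) and digits for the library number. The AN1 libraries sit between 11.6 and 14.0 CPM, and the AN2 libraries between 34.9 and 60.5 CPM.

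The fitted log2 fold change of STUGE51 was 0.96 ± 0.29 (SE) between AN0 and AN1, 1.76 ± 0.30 between AN2 and AN1, and 0.80 ± 0.29 between AN2 and AN0, the first-named being higher each time. These correspond to 1.94-fold, 3.39-fold and 1.74-fold differences, and the 3 comparisons share libraries, so they are not independent of each other. Without AN0-1 and AN2-3 the log2 fold changes were 0.69 ± 0.19, 1.47 ± 0.19 and 0.77 ± 0.21 (SE) in the same order. The remaining AN0 libraries then stood at 18.4 and 23.3 CPM, and the remaining AN2 libraries at 34.9 and 35.7 CPM. The order AN1, AN0, AN2 with no overlap was present in these 7 libraries as well, as it was for 1.02% of the genes.

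The spread of neighbours in that order is given as a description of the values the gene was selected on. The highest AN1 library had 14.0 CPM and the lowest AN0 library 18.4 CPM, and the ranges of mean ± SD did not overlap. The highest AN0 library had 33.5 CPM and the lowest AN2 library 34.9 CPM, and the ranges of mean ± SD overlapped with all libraries. Without AN0-1 and AN2-3 they did not: AN2 then had a mean of 35.3 ± 0.615 CPM and AN0 one of 20.9 ± 3.46 CPM (SD, n = 2). On the authors' FPKM scale, which adjusts for gene length and library total but not for library makeup, the pair overlapped. There AN0-1 had 26.7 FPKM and AN2-2 had 25.2 FPKM, while the treatment means were 18.9 ± 6.94 in AN0, 9.70 ± 0.732 in AN1 and 38.6 ± 16.8 FPKM in AN2 (SD, n = 3).

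The full order of AN1 below AN0 below AN2 with no overlap in CPM over the 9 libraries was shown by 91 of the 21223 genes, or 0.429%. A larger log2 fold change than that of STUGE51 was found for 8.09% of genes between AN0 and AN1, for 5.04% between AN2 and AN1, and for 14.9% between AN2 and AN0.

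Within a library, STUGE51 took a higher place among the expressed genes in AN0 and AN2 than in AN1. By FPKM it ranked 8963rd of 22832 genes above 0 in AN1-2, its lowest library, and 2212th of 23745 in AN2-3, its highest. The share of genes with a lower FPKM was between 60.7% and 65.5% in AN1, between 70.8% and 81.9% in AN0 and between 82.0% and 90.7% in AN2. The ranges of the treatments did not overlap on this scale, though AN0-1 at 81.9% and AN2-2 at 82.0% nearly met. The SD of its log2 CPM within a treatment was 0.43 in AN0, 0.14 in AN1 and 0.45 in AN2. For the 3426 genes within 0.5 log2 units of its mean level, the median SD was 0.36, 0.23 and 0.32. STUGE51 was thus below that median in AN1 and above it in AN0 and AN2. Of these genes 60.7%, 24.9% and 69.6% had a smaller SD than STUGE51 in AN0, AN1 and AN2, so its spread was not unusual.

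The level of STUGE51 went in part with the marker transcripts that set AN0-1 and AN2-3 apart. In AN2-3, where it was highest, the 7 storage and inhibitor genes summed to 1745 CPM, the lowest of the 9 libraries. In AN0-1, the highest AN0 library for STUGE51, the photosynthesis sum of 639 CPM was the highest of the 9. The match was not complete. AN0-1, with that highest photosynthesis sum and a storage sum of 12224 CPM, had 33.5 CPM of STUGE51, below every AN2 library. AN2-1 and AN2-2 had nearly equal STUGE51 levels of 35.7 and 34.9 CPM, with storage sums of 15507 and 48735 CPM and photosynthesis sums of 70.2 and 73.3 CPM. AN0-2 had the higher photosynthesis sum, 86.3 CPM, and the lower STUGE51 level of 23.3 CPM.

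Across the 9 libraries the Pearson correlation of log2 STUGE51 CPM was 0.834 with the log2 photosynthesis sum and -0.744 with the log2 storage sum, given as a description, since all points share the library scaling and 2 libraries lie far out. Over the 7 libraries without AN0-1 and AN2-3, a choice made after seeing the data, these correlations were 0.777 and -0.361. In each of those 7 libraries most of the photosynthesis sum came from a single gene, PSBR of photosystem II, so the first value describes PSBR more than the set. Defining photosynthesis genes were near absence in several libraries: cab1, for a chlorophyll-binding protein, had 0 counts in AN0-3, AN1-1, AN1-2 and AN2-2, and up to 4 of the 6 genes were at 0 in a library. SUT1, a sucrose transporter of the phloem, ranged from 94.8 CPM in AN1-1 to 263 CPM in AN2-3. By treatment it spanned 136 to 174 CPM in AN0, 94.8 to 122 CPM in AN1 and 125 to 263 CPM in AN2. In RNA from stolon tissue of mixed cells, fewer cells of a type and less RNA per cell cannot be told apart. Among those 7 libraries the photosynthesis sum was 70.2 and 73.3 CPM in AN2 and 9.85 to 54.9 CPM in AN1. PSBR alone had 60.4 and 69.8 CPM of it in AN2 and 9.52 to 46.5 CPM in AN1. PSBO overlapped between these treatments, at 9.69 and 3.48 CPM against 0.158 to 7.1 CPM. RBCS-C had 1 and 0 counts in AN2 (0.0244 and 0 CPM) and 4 to 10 counts in AN1 (0.127 to 0.276 CPM), too few to compare. In AN2-3, left out here, RBCS-C had 22.6 CPM. The remaining members overlapped. The part of tissue makeup in the STUGE51 levels was not tested.

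**Figure D2:**
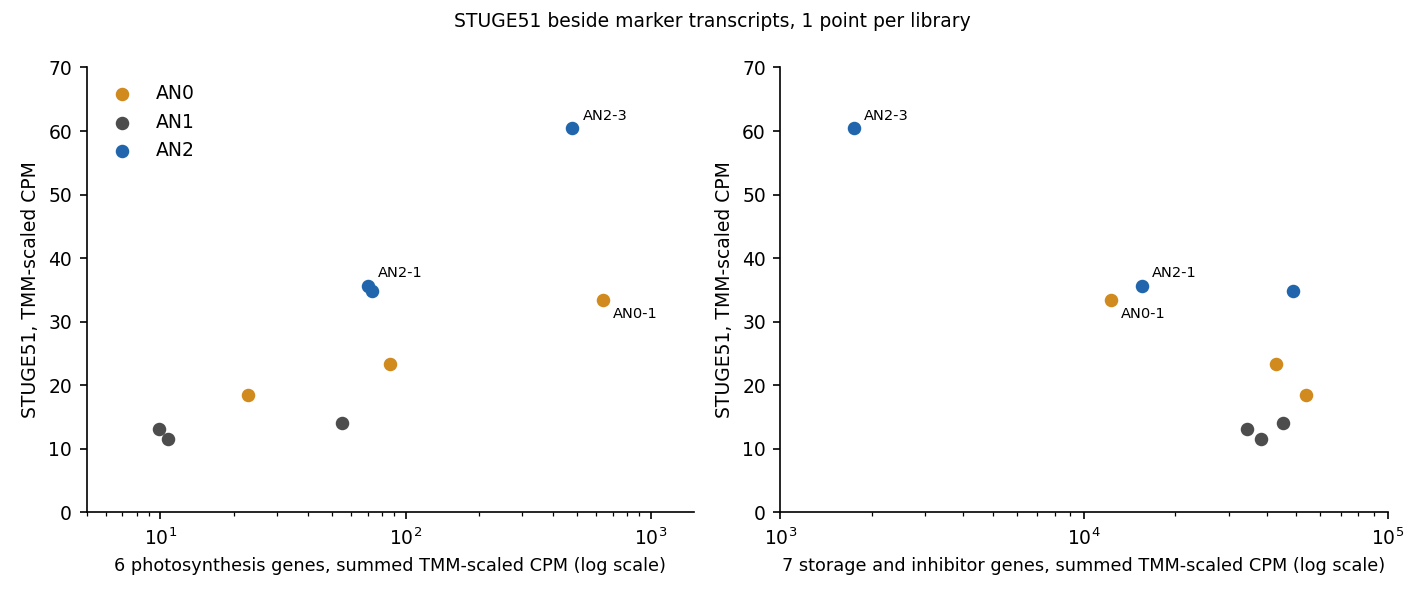
STUGE51 in TMM-scaled CPM against the summed CPM of 6 photosynthesis genes (left) and 7 storage and inhibitor genes (right), 1 point per library, with log horizontal axes. AN2-3 lies at the top in both panels, at 60.5 CPM, while AN2-1 and AN2-2 differ in storage sum and hardly in STUGE51.

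STUGE45, the second UDP-glucose 4-epimerase, had treatment means in another order, with overlap throughout. It stood at 13.7, 8.0 and 5.70 CPM in AN0, at 7.97, 12.3 and 13.5 CPM in AN1, and at 13.7, 13.4 and 38.0 CPM in AN2. All 3 treatments overlapped, and AN2-3 was the 1 library clearly above the rest. Its log2 fold change was -0.30 ± 0.47 (SE) in AN0 relative to AN1 (edgeR quasi-likelihood test, Benjamini-Hochberg adjusted p = 0.899). It was 0.95 ± 0.47 in AN2 relative to AN1 (edgeR adjusted p = 0.427) and 1.25 ± 0.48 relative to AN0 (edgeR adjusted p = 0.175). None of these passed the threshold of 0.05. Without AN2-3 the value relative to AN1 was 0.27 ± 0.38 (edgeR adjusted p = 0.864), and relative to AN0 it was 0.57 ± 0.38 (edgeR adjusted p = 0.432). Without both AN0-1 and AN2-3, AN0 stood at -0.72 ± 0.29 relative to AN1 (edgeR adjusted p = 0.357). AN2 then stood at 0.28 ± 0.28 relative to AN1 (edgeR adjusted p = 0.697) and at 1.00 ± 0.31 relative to AN0 (edgeR adjusted p = 0.138).

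The ratio between both epimerase transcripts was mostly lower in AN1 than in the other treatments. STUGE51 was selected on its levels, so this ratio in part restates them and is given as a description. Measured per length in FPKM, STUGE51 exceeded STUGE45 in all 9 libraries. The ratio of STUGE51 to STUGE45 was 2.64, 3.15 and 3.50 in AN0, 1.77, 1.02 and 1.12 in AN1, and 2.81, 2.81 and 1.72 in AN2. Both transcripts were at nearly equal FPKM in AN1-2 and AN1-3, and every AN0 ratio was above every AN1 ratio. The AN2 ratios overlapped those of AN0, and AN2-3, with 33.4 FPKM of STUGE45, fell within the AN1 range. As a share of the summed FPKM of both genes, STUGE51 made up 72.5% to 77.8% in AN0, 50.6% to 63.9% in AN1 and 63.3% to 73.8% in AN2. Within treatments, both genes had their high libraries in common: AN0-1 was the highest and AN0-3 the lowest AN0 library for each, and AN2-3 the highest AN2 library. The Pearson correlation of both on the log2 CPM scale was 0.662 over the 9 libraries and 0.908 for deviations from the treatment means, given as a description.

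**Figure D3:**
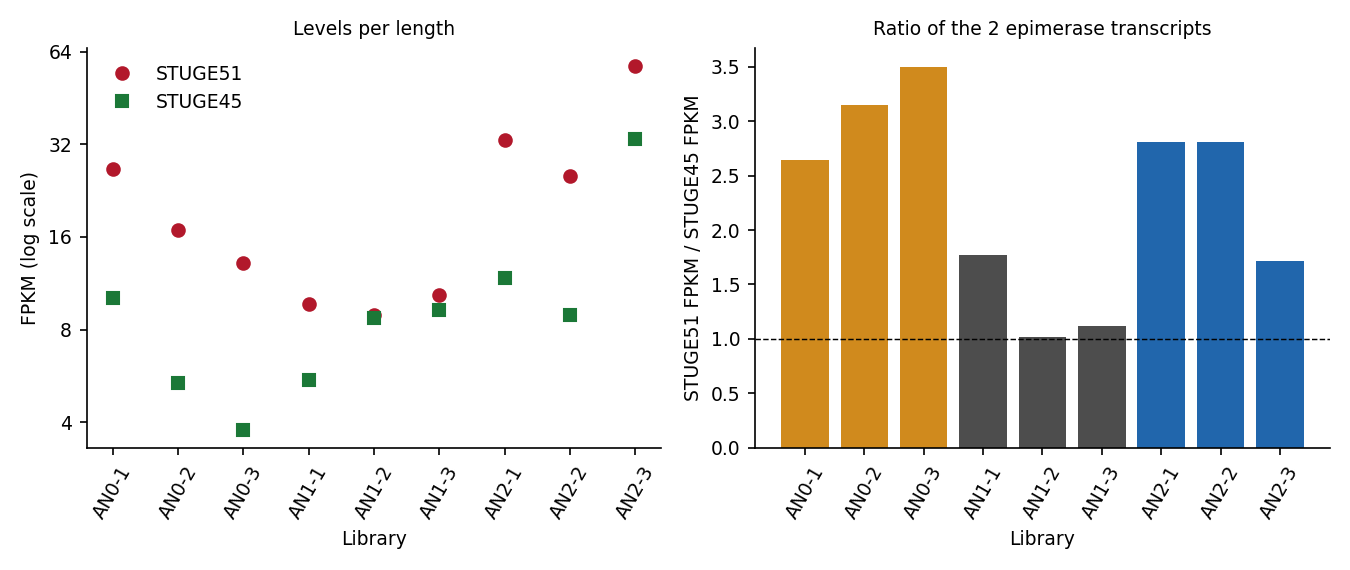
Left, FPKM of STUGE51 and STUGE45 in each library on a log axis. Right, the ratio of both, with a dashed line at equal FPKM: the ratio is 1.02 to 1.77 in AN1 and 2.64 to 3.50 in AN0.

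A list of 23 other genes covered the supply and use of UDP-sugars and the remodelling of the wall, of which 22 passed the filter. By edgeR, 0 of the 22 were called in any comparison. Of all genes it called 0.0471% between AN0 and AN1, 0.697% between AN2 and AN1, and 3.65% between AN2 and AN0. With 1 library left out, these calls over all genes ranged from 0 to 109, from 0 to 367 and from 110 to 1077, against 10, 148 and 774 with all libraries. An unadjusted p under 0.05 by edgeR was found for 2, 1 and 7 of the 22 in the same order, and for 10.8%, 13.8% and 20.4% of all genes. DESeq2, which called 3.20%, 6.01% and 13.1% of all genes, called 0, 1 and 1 of the 22. The limma test on log2(FPKM + 1) called 0 of the 22 throughout, and 0.138%, 2.11% and 6.15% of the 18167 genes it tested. The median log2 fold change of the list was 0.16 for AN0 to AN1, -0.18 for AN2 to AN1 and -0.19 for AN2 to AN0. Over all 21223 genes the medians were 0.02, 0.02 and 0.01.

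The genes for the supply of hexose phosphate and UDP-glucose did not pass the test in any comparison by edgeR. This group includes hexokinases and a plastidial phosphoglucomutase, and so is wider than the making of UDP-glucose. All 6 had log2 fold changes below 0 in AN2 relative to AN1, as had 48.6% of all genes, with a median of -0.44. The hexokinase genes HXK1 (LOC102604144) and HXK2 (LOC102577690), named after their values were seen, were close to 0, at -0.02 ± 0.19 and -0.04 ± 0.19 (SE). Without AN0-1 and AN2-3 the 6 values ranged from -0.62 ± 0.31 for SS16 to 0.01 ± 0.20 for HXK1 (SE), so not all were below 0. For that comparison 0 of the 6 were called by edgeR, DESeq2 or limma, or had an unadjusted p under 0.05 by edgeR. Sucrose synthase SS16, which splits sucrose into UDP-glucose and fructose, stood at 2345, 6084 and 4688 CPM in AN0, 2827, 4031 and 3527 CPM in AN1, and 2628, 1806 and 518 CPM in AN2. Its AN2 libraries were all below the AN1 libraries, as for 9.26% of all genes, and the value in AN2-3 was the lowest of all. On the log2 scale AN2 differed from AN1 by -1.07 ± 0.58 (SE, edgeR adjusted p = 0.476), and by -0.62 ± 0.31 without AN0-1 and AN2-3 (edgeR adjusted p = 0.426). UGPase (LOC102577726), which makes UDP-glucose from glucose 1-phosphate and UTP, stood at 411, 941 and 900 CPM in AN0, 579, 492 and 655 CPM in AN1, and 358, 489 and 280 CPM in AN2. Its AN2 libraries also lay below those of AN1, by -0.61 ± 0.37 on the log2 scale (SE, edgeR adjusted p = 0.529). The plastidial phosphoglucomutase PGMP (LOC102585015), named after its values were seen, differed by -1.47 ± 0.55 on the log2 scale between AN2 and AN0 (SE, edgeR adjusted p = 0.164), and DESeq2 called it lower there with an adjusted p = 0.0492. Without AN0-1 and AN2-3 the edgeR value was -1.15 ± 0.29 (adjusted p = 0.0869). Per length, these transcripts were far more abundant than the epimerases: SS16 had 1183 ± 228 FPKM and UGPase 315 ± 39.2 FPKM in AN1 (SD, n = 3), against 9.70 ± 0.732 FPKM for STUGE51.

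Of the genes for other nucleotide sugars, RGP1 (LOC102589020) and RGP2 (LOC102601908) encode reversibly glycosylated polypeptides, a family known as UDP-arabinose mutases. RGP2 stood at 222 to 517 CPM in AN0, 344 to 505 CPM in AN1 and 269 to 557 CPM in AN2, and RGP1 at 52.8 to 112, 76.5 to 120 and 71.4 to 111 CPM. The treatments overlapped for both genes. Their log2 fold changes were between -0.28 and 0.04 in the 3 comparisons, with edgeR adjusted p of at least 0.839. GMP, the GDP-mannose pyrophosphorylase, named after its values were seen, had its highest libraries in AN0. It had 130 ± 17.7 CPM in AN0, 82.2 ± 18 CPM in AN1 and 83.1 ± 27.5 CPM in AN2 (SD, n = 3), and differed on the log2 scale by 0.66 ± 0.28 between AN0 and AN1 (SE, edgeR adjusted p = 0.445) and by -0.65 ± 0.28 between AN2 and AN0 (edgeR adjusted p = 0.240).

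Genes for enzymes that use UDP-galactose were not called in any comparison by edgeR with all libraries. Galactinol synthase joins galactose from UDP-galactose to inositol. GolS3 (LOC102589277) stood at 33.3, 15.3 and 20.9 CPM in AN0, 17.8, 26.3 and 37.1 CPM in AN1, and 27.1, 24.3 and 116 CPM in AN2. The value in AN2-3 stood far above the other 8, which overlapped between treatments, and the log2 fold change of AN2 relative to AN1 was 1.04 ± 0.60 (SE, edgeR adjusted p = 0.509) and -0.06 ± 0.32 without AN0-1 and AN2-3 (edgeR adjusted p = 0.956). GolS1 (LOC102589307) had 1 count in AN2-1, 6 counts in AN2-3 and 0 in the other 7 libraries, and was not tested. The solanidine galactosyltransferase sgt1 (LOC102602977), which adds galactose in glycoalkaloid synthesis, stood at 21.9, 38.7 and 26.7 CPM in AN0, 88.5, 71.5 and 68.5 CPM in AN1, and 97.1, 22.8 and 56.8 CPM in AN2. All its AN0 libraries lay below all AN1 libraries, the opposite side from STUGE51, by -1.39 ± 0.45 on the log2 scale (SE, edgeR adjusted p = 0.316). Between these treatments 18.5% of all genes did not overlap, in one direction or the other. GolS3, GolS1 and sgt1 were named for their use of UDP-galactose, after their values were seen.

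The list held other glycosyltransferases as well. STCESA3, a catalytic subunit of cellulose synthase, which polymerizes glucose from UDP-glucose, stood at 904, 548 and 277 CPM in AN0, 416, 510 and 383 CPM in AN1, and 268, 211 and 598 CPM in AN2. All treatments overlapped, with a log2 fold change of -0.28 ± 0.49 in AN2 relative to AN1 (SE, edgeR adjusted p = 0.898) and -0.85 ± 0.32 without AN0-1 and AN2-3 (edgeR adjusted p = 0.313). Sgt3 (LOC102577928), which adds rhamnose to glycoalkaloids, had 98.2 to 129 CPM in AN0, 182 to 208 CPM in AN1 and 24.5 to 265 CPM in AN2. Its AN0 libraries were below the AN1 libraries, by -0.76 ± 0.64 on the log2 scale (SE, edgeR adjusted p = 0.750). As given above, 18.5% of all genes did not overlap between these treatments, counting both directions. SPS, for a sucrose phosphate synthase, which uses UDP-glucose, was named after its values were seen. It stood at 404, 392 and 383 CPM in AN0, 173, 354 and 239 CPM in AN1, and 219, 175 and 425 CPM in AN2. Its AN0 libraries were all above the AN1 libraries, as for 9.54% of all genes, by 0.62 ± 0.38 on the log2 scale (SE, edgeR adjusted p = 0.616).

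In the group of wall-remodelling genes, EXLA1, an expansin-like gene named after its values were seen, came closest to the order of STUGE51. It stood at 31.5, 5.94 and 28 CPM in AN0, 14.0, 10 and 16.1 CPM in AN1, and 49.1, 36.6 and 55.5 CPM in AN2. The AN2 libraries were above all AN1 libraries, as for 13.3% of all genes, and above all AN0 libraries, as for 13.0%. AN0 overlapped AN1. The log2 fold change of EXLA1 in AN2 relative to AN1 was 1.81 ± 0.52 (SE), with an edgeR adjusted p = 0.163 and a DESeq2 adjusted p = 0.0174. Without AN0-1 and AN2-3 it was 1.69 ± 0.55 (edgeR adjusted p = 0.24). PEST2, a pectin methylesterase, stood at 288, 108 and 61.9 CPM in AN0, 70.9, 33.9 and 65.0 CPM in AN1, and 55.3, 48.0 and 173 CPM in AN2, with overlapping treatments. In AN0 relative to AN1 its log2 fold change was 1.43 ± 0.65 (SE, edgeR adjusted p = 0.472), and 0.58 ± 0.35 without AN0-1 and AN2-3 (edgeR adjusted p = 0.527). The high libraries were AN0-1 and AN2-3. The xyloglucan endotransglucosylase xth1 (LOC102598951) stood at 4.04 to 47.3 CPM in AN0, 15.5 to 33.3 CPM in AN1 and 32.8 to 56.0 CPM in AN2, a log2 difference of 0.82 ± 0.69 between AN2 and AN1 (SE, edgeR adjusted p = 0.706).

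**Figure D4:**
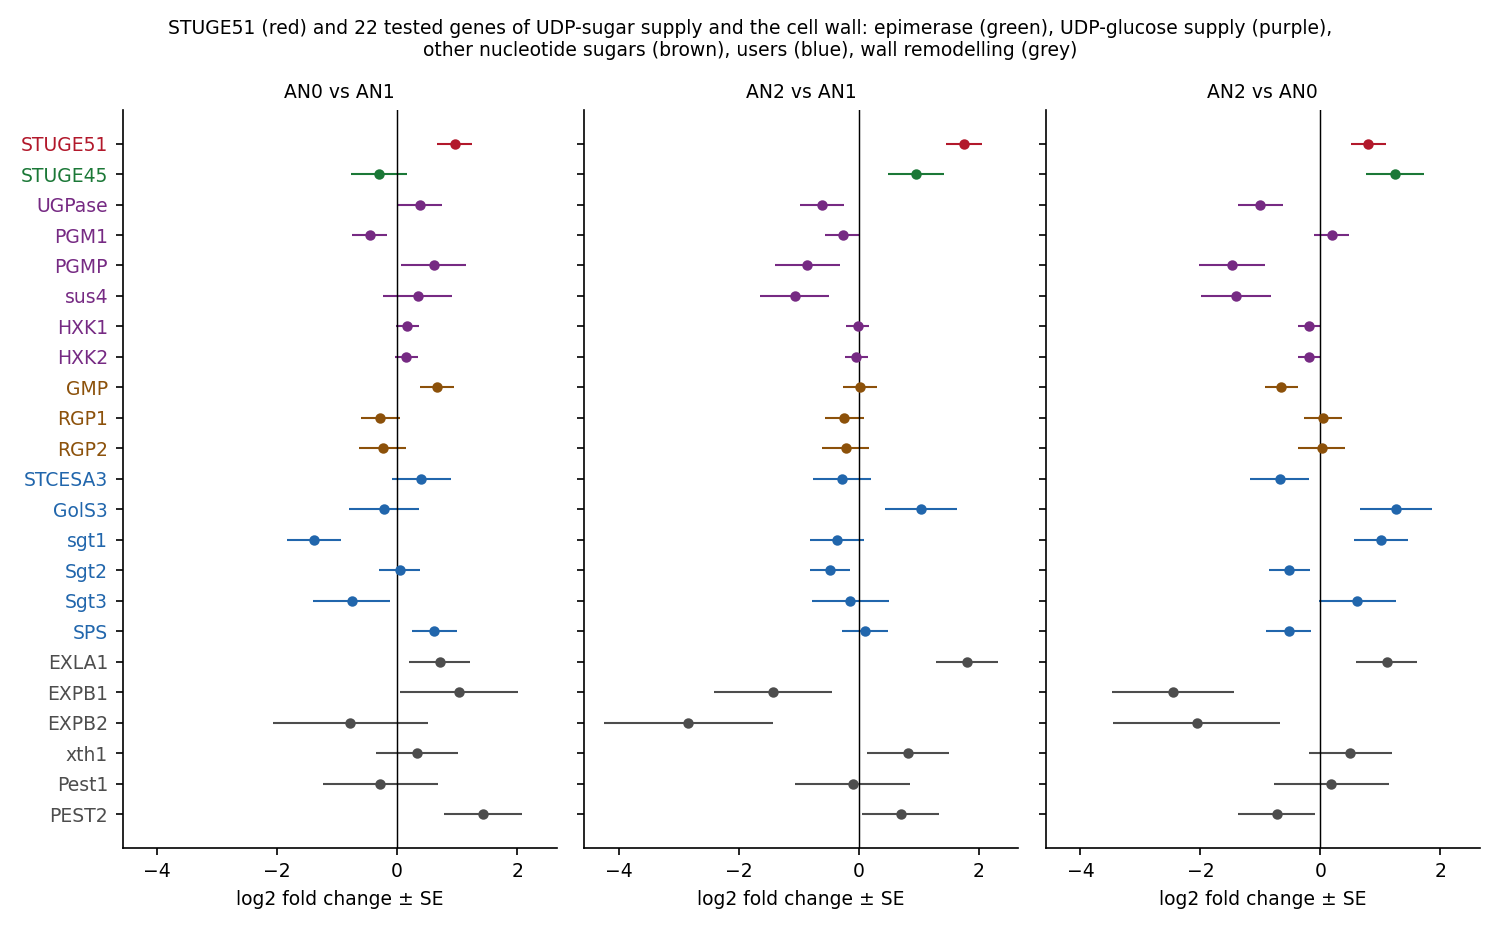
Log2 fold changes with SE of STUGE51 and the 22 tested genes of UDP-sugar supply and the cell wall in the 3 comparisons, coloured by role. STUGE51 lies at 0.96, 1.76 and 0.80, and none of the 22 was called by edgeR. Between AN2 and AN1 the 6 genes of hexose phosphate and UDP-glucose supply range from -1.07 to -0.02, with 48.6% of all genes below 0. Without AN0-1 and AN2-3 (not drawn) these 6 range from -0.62 to 0.01.

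The genes most like STUGE51 in pattern were sought among the 18606 other genes whose mean reached 1 CPM, by the Pearson correlation of log2 CPM over the 9 libraries, as a description. A correlation of at least 0.9 was reached by 116 of them, or 0.623%. The 5 nearest, LOC102591089, LOC102584034, LOC102600392, LOC102580661 and LOC102598235, are known by number only and had correlations between 0.968 and 0.985. LOC102591089 stood at 21.6, 12.9 and 9.21 CPM in AN0, 6.46, 6.02 and 7.60 CPM in AN1, and 30, 18.6 and 44.7 CPM in AN2. Like STUGE51 it was low in AN1 and highest in AN2-3, but its AN0-1 library lay above AN2-2.

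Of the 435 genes with a symbol or synonym, 3 reached 0.9. These were LOC102589539 (ivd1, 0.948), an acyl-CoA dehydrogenase gene with 5.18 CPM in AN2-3 and at most 1.37 CPM elsewhere, PLC1 (0.915), a phospholipase C gene of phosphoinositide signalling, and POTH15 (0.904), a KNOTTED1-like homeobox transcription factor gene. PLC1 stood at 24.3, 22.9 and 16.1 CPM in AN0, 8.11, 7.73 and 7.71 CPM in AN1, and 24.7, 15.6 and 36.3 CPM in AN2. It shared the low, tight AN1 values of STUGE51, but AN0 and AN2 overlapped. POTH15 stood at 19.7, 21.7 and 16.3 CPM in AN0, 15.2, 13.0 and 14.9 CPM in AN1, and 25, 29.6 and 26.5 CPM in AN2. Its treatments did not overlap, and AN2-3 was not its highest library. The next named genes were LOC102577743 (pp34, 0.898) and the photosystem II gene PSBR (0.863), whose level was 279 CPM in AN0-1, 299 CPM in AN2-3 and at most 80.4 CPM elsewhere. PSBR also belongs to the photosynthesis sum above, so its likeness and that of the sum are not separate.

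The named genes most opposed to STUGE51 were PPO, PFP-ALPHA, MPP, PFP-BETA and CP100, with correlations from -0.941 to -0.810. PPO, for a polyphenol oxidase, stood at 335, 797 and 857 CPM in AN0, 1182, 1084 and 1355 CPM in AN1, and 573, 401 and 151 CPM in AN2. It was highest in the AN1 libraries and lowest in AN2-3, the reverse of STUGE51. PFP-ALPHA and PFP-BETA are the subunits of the pyrophosphate-dependent phosphofructokinase, and both were lowest in AN2-3, at 143 and 433 CPM. STUGE45 ranked 1566th of the 18606 in likeness, with 0.662, and EXLA1 was the list member nearest to STUGE51, with 0.728.

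**Figure D5:**
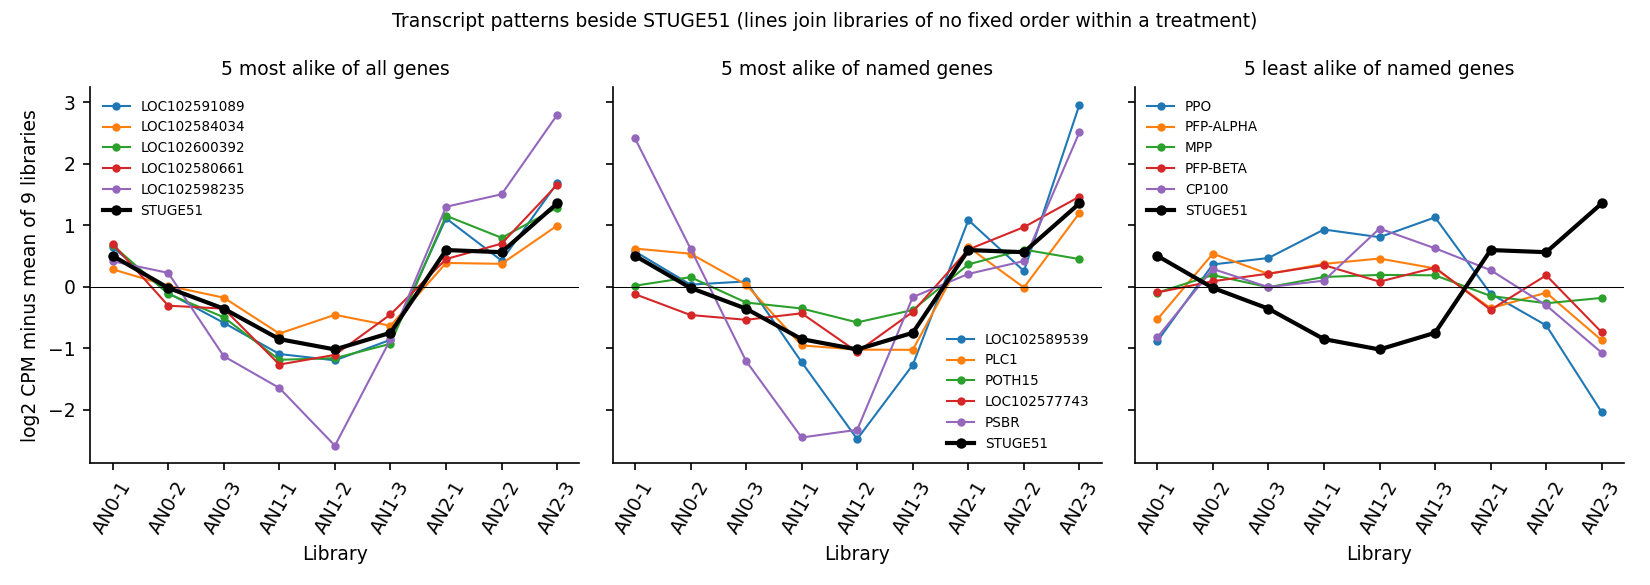
Log2 CPM minus the mean of the 9 libraries for STUGE51 (black) and the 5 most alike of all genes, the 5 most alike named genes and the 5 least alike named genes, by library. The 5 nearest of all genes are low in AN1, POTH15 among the named genes does not peak in AN2-3, and PPO runs opposite, with a correlation of -0.941.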

How the data were processed

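The deposited count table holds the authors' whole-number read counts per gene and library, not normalized. The authors' FPKM values equal the count divided by gene length and library total, with a largest relative difference of 1.71e-07 once lengths were rounded to whole bases. Per the submitters' processing notes the tools were R 3.2.0, DESeq2, HTSeq, HISAT2 and fastp, with no role stated. Build, annotation and strand setting are not given in the labels or tables used, so no coordinates are printed, and how reads were shared among similar epimerase genes is not known. Names came from the RefSeq table of SolTub_3.0, where 25672 of 25702 IDs matched.

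Counts were fitted with edgeR 4.0.16 in R 4.3.3 (TMM factors, filterByExpr, robust quasi-likelihood, a mean per treatment over all 9 libraries, no covariate). A gene was called at a Benjamini-Hochberg adjusted p under 0.05 over 21223 genes. The SE is the log2 fold change divided by the root of F. Log2 CPM used a prior count of 2. The code was tested on simulated counts with less spread than these data have, so that test gives no power or error rate for them. DESeq2 1.42.0 and limma 3.58.1 on log2(FPKM + 1) and log2(FPKM + 0.1) were alternatives.

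STUGE51, the lists and the rules were chosen with earlier results of these data known. Of the 23 list genes, 18 came from name patterns and 5 (RGP1, RGP2 and 3 expansins) were added by symbol after the tables' names were read. Genes named are STUGE45, the 2 list members of each role with the highest mean FPKM, any called member, and the 5 most alike, 5 most alike named and 5 least alike named genes; others are marked as named after their values were seen. Protein similarity to STUGE51 was not used here.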

Additional observations from a re-analysis of the deposited data

How the results depend on the processing

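The log2 fold changes of STUGE51 kept their sign in all 16 alternatives. They moved by less than the pooled SD of 0.37 between libraries of a treatment, which is wider than their SE of 0.29 to 0.30. They ranged from 0.69 to 1.14 between AN0 and AN1, from 1.45 to 1.90 between AN2 and AN1, and from 0.49 to 1.06 between AN2 and AN0. The lowest value of the first was without AN0-1. The lowest values of the last 2 were without AN2-3. There AN2 to AN1 gave 1.45 ± 0.27 (SE) against 1.76 ± 0.30 with all libraries, and AN2 to AN0 gave 0.49 ± 0.27 against 0.80 ± 0.29. The labels do not say whether same-numbered libraries belong together. Same-numbered libraries of different treatments had correlations of deviations from -0.472 to 0.083, and 2 of 9 libraries correlated best with their own number. These values show no sign of pairing but cannot exclude it. With the replicate block the 3 values were 0.96, 1.75 and 0.78, and 0 list genes were called, while the calls over all genes went from 10, 148 and 774 to 0, 5 and 166. STUGE45 was called in no alternative, with log2 fold changes from -0.72 to -0.05, from 0.27 to 1.19 and from 0.57 to 1.66 in the same order. The count of list genes called stayed at 0 between AN0 and AN1. Between AN2 and AN1 it was 1 with DESeq2 (EXLA1) and 0 otherwise. Between AN2 and AN0 it was 1 with DESeq2 (PGMP), and from 0 to 2 with 1 library left out, the 2 being sgt1 (log2 fold change 1.40, edgeR adjusted p = 0.0445) and Sgt3 (1.13, 0.0311), both higher without AN2-2. The cause was not tested. The choice of the most alike genes was unstable: of the 5 nearest genes 0 stayed among the nearest 5 by Spearman's rho, 0 by deviations from the treatment means, 4 on log2(FPKM + 1), and 1 to 4 with 1 library left out. For the 5 nearest named genes these counts were 2, 0, 4 and 2 to 5. Depth did not limit STUGE51, whereas GolS1, with at most 6 counts in a library, was too sparse to compare.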
